A study of Homo sapiens with 12 samples.

Results

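The 39 protein-coding genes of the HOXA, HOXB, HOXC and HOXD clusters were followed by RNA sequencing through 12 libraries of the ovarian cell lines KGN and COV434. The members were taken as every protein-coding gene named HOXA, HOXB, HOXC or HOXD with a number, which gave 39 of the 58735 genes measured. KGN and COV434 are cultured lines labelled as granulosa cell tumors, wild type in genotype, and each was sequenced untreated and after 77-39, an inhibitor of the mitochondrial deacetylase SIRT3, with 3 libraries per group. The labels give 10 μm/ml of 77-39 for 72 h, with a unit that cannot be read with certainty, and the p-values measure the spread between the 3 libraries of a group, which may be technical. The study’s methods speak of independent experiments in general but do not say so of these libraries. Levels are given as FPKM (fragments per kilobase of gene, scaled by a divisor for each library), which corrects for gene length and permits comparison between genes, and the libraries held 15547851 to 18280415 reads on genes.

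HOX genes encode homeodomain transcription factors that set position along the body axis. They lie in clusters in which genes are numbered from the 3′ end, and low-numbered genes are generally used earlier and further forward in the embryo than high-numbered ones. In the female tract, HOXA9, HOXA10, HOXA11 and HOXA13 are known for marking successive segments from oviduct to vagina. Adult cells often keep the combination of their origin, held by the opposing Polycomb and MLL chromatin complexes. HOX proteins bind DNA together with the TALE cofactors PBX and MEIS.

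The labels and the cells did not match on some defining genes, so the libraries are named throughout by their labels only. FOXL2, the transcription factor that maintains granulosa identity, was at 0.00581 ± 0.0101 FPKM in the untreated libraries labelled KGN, against 12.4 ± 0.786 FPKM in those labelled COV434 (SD, n = 3 each). SMARCA2, one of the alternative ATPases of the SWI/SNF remodeler, was at 0.00773 ± 0.00127 and 5.65 ± 0.717 FPKM in the same order, and the other ATPase, SMARCA4, at 2.58 ± 0.0210 and 9.22 ± 3.13 FPKM. The summed level of 12 epithelial markers was 3.06 to 3.38 FPKM in the untreated libraries labelled KGN, with 6 of the 12 at 0 reads, KRT7, KRT18 and KRT19 among them. In those labelled COV434 it was 852 to 996 FPKM, with 2 of the 12 at 0 reads. The latter sum was mostly KRT7, KRT8 and KRT18 (means of 406, 221 and 201 FPKM). Of the 12, 2 reached 1 FPKM under the label KGN and 6 under the label COV434. EPCAM, CDH1 and CLDN3 were under 1 FPKM in both, and PAX8 ran the other way (1.05 against 0.568 FPKM). The summed level of 10 fibroblast markers was 40.2 to 42.5 FPKM with 1 at 0 reads and 82.1 to 204 FPKM with 1 at 0 reads. Of the 10, 3 and 5 reached 1 FPKM. The sum under the label COV434 was mostly LUM (mean 118 FPKM), while COL3A1 ran the other way (25.7 FPKM under the label KGN against 5.50 FPKM). Of 10 neural markers the sum was 76.0 to 78.7 FPKM, mostly STMN2, and 3.52 to 3.83 FPKM, with 1 and 4 of the markers at 0 reads. None of 8 immune markers reached 1 FPKM in any group. Of 14 granulosa markers, 5 were at or over 1 FPKM in either untreated group, with sums of 110 to 118 FPKM and 32.4 to 35.9 FPKM. These markers ran in both directions. Of 7 tested with limma as described below, 4 were called higher in the libraries labelled COV434, FOXL2 among them, and 3 lower. These counts stand beside 69.0 percent of all genes called. NR5A2 was at 47.1 FPKM under the label KGN and at 0.0105 FPKM under the label COV434, and WT1 at 59.7 FPKM and 0 reads. The summed epithelial, fibroblast, neural and granulosa markers differ with the same labels as the HOX genes below, and their part in the HOX differences was not tested. Which name belongs to which cells cannot be told apart here, and every direction between the lines holds for the labels as given.

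The clusters lie on 4 chromosomes of GRCh38. HOXA holds 11 members at chr7:27092993-27200106, HOXB 10 members at chr17:48528526-48729178, HOXC 9 members at chr12:53938765-54056030 and HOXD 9 members at chr2:176092891-176190907. Another 54 genes of noncoding or other classes lie between their outermost members. Exons overlap widely: 25 of the 39 members share exon bases with another gene, 18 with one on the same strand and 19 with one on the opposite strand. HOXA7, HOXC5, HOXD1, HOXD3 and HOXD4 share over 50% of their exon bases. No source states that strand was used in counting, so reads of a HOX gene and of its antisense neighbour cannot be told apart. HOXA4 shares 47.3%, HOXA6 40.1%, HOXB6 33.0% and HOXA10 26.3%, so their levels are less certain. HOXA5, HOXB7, HOXC8 and HOXC11 share no exon bases with any gene.

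In the libraries labelled KGN, 3 clusters went from transcribed to nearly silent between neighbours. Untreated, the step was from 97 reads in HOXA6 to 2 in HOXA7, from 2498 in HOXC10 to 1 in HOXC11 and from 375 in HOXD9 to 0 in HOXD10. The 250 bases before the RefSeq starts of HOXA6, on the transcribed side, and of HOXA9 and HOXA11, on the silent side, are shown because HOXA has the most matched RefSeq starts, each on the minus strand of GRCh38.p14 and written 5′ to 3′, with CG dinucleotides in capitals. They lie at chr7:27147775-27148024, chr7:27165538-27165787 and chr7:27185233-27185482 and hold no bases annotated as untranslated region. The starts of HOXA6 and HOXA9 lie 2829 and 9643 bases inside the gene as annotated for the deposited values, and that of HOXA11 lies 9 bases outside.

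HOXA6: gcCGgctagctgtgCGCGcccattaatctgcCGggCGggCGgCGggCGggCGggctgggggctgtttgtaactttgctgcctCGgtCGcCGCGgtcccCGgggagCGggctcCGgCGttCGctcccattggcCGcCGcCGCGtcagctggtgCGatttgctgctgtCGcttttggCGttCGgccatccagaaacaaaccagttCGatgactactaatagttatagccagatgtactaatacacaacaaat
HOXA9: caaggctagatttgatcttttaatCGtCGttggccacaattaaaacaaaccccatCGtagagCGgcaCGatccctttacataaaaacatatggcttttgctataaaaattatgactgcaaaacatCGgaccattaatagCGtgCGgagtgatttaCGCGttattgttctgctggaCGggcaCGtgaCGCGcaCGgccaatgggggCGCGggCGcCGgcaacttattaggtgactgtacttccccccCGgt
HOXA11: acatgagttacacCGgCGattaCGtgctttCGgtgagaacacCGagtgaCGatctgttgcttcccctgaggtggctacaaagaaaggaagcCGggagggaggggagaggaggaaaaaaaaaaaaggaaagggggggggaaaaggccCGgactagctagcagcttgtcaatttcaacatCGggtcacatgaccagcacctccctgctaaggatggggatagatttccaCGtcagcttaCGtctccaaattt

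The HOXA6 window holds 27 CG dinucleotides, the HOXA9 window 20 and the HOXA11 window 11, against a median of 11 over 35116 RefSeq windows of this length. RefSeq starts were matched for 20 of the 39 members, in 27 windows with a median of 19. Windows dense in CG were found on both sides of the change, with 28 in HOXA7 and 40 in HOXA13. The letters TATAAA, searched on both strands, are in the HOXA9 window and in 5 of the 27 HOX windows, against 10.7% of all windows. The letters TGATNNAT, as in composite PBX and HOX sites, are in 3 of the 27, against 6.47% of all, and in none of the 3 windows shown. These matches describe letters and not binding.

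Untreated, the libraries labelled KGN used fewer HOX genes than those labelled COV434. A group mean of at least 1 FPKM was reached by 13 of 39 members in the first and by 21 of 39 in the second. At most 3 reads in every library were found for 20 members under the label KGN and for 5 under the label COV434. In bulk RNA, fewer cells that transcribe a gene and less RNA per cell cannot be told apart. HOXB1, HOXD3 and HOXD4 had no read in any of the 12 libraries, which allows up to 3 reads per group. HOXD3 and HOXD4 share 74.1% and 80.5% of their exon bases with other genes. If reads on shared bases were not counted, the bound does not hold for these genes.

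**Figure D1:**
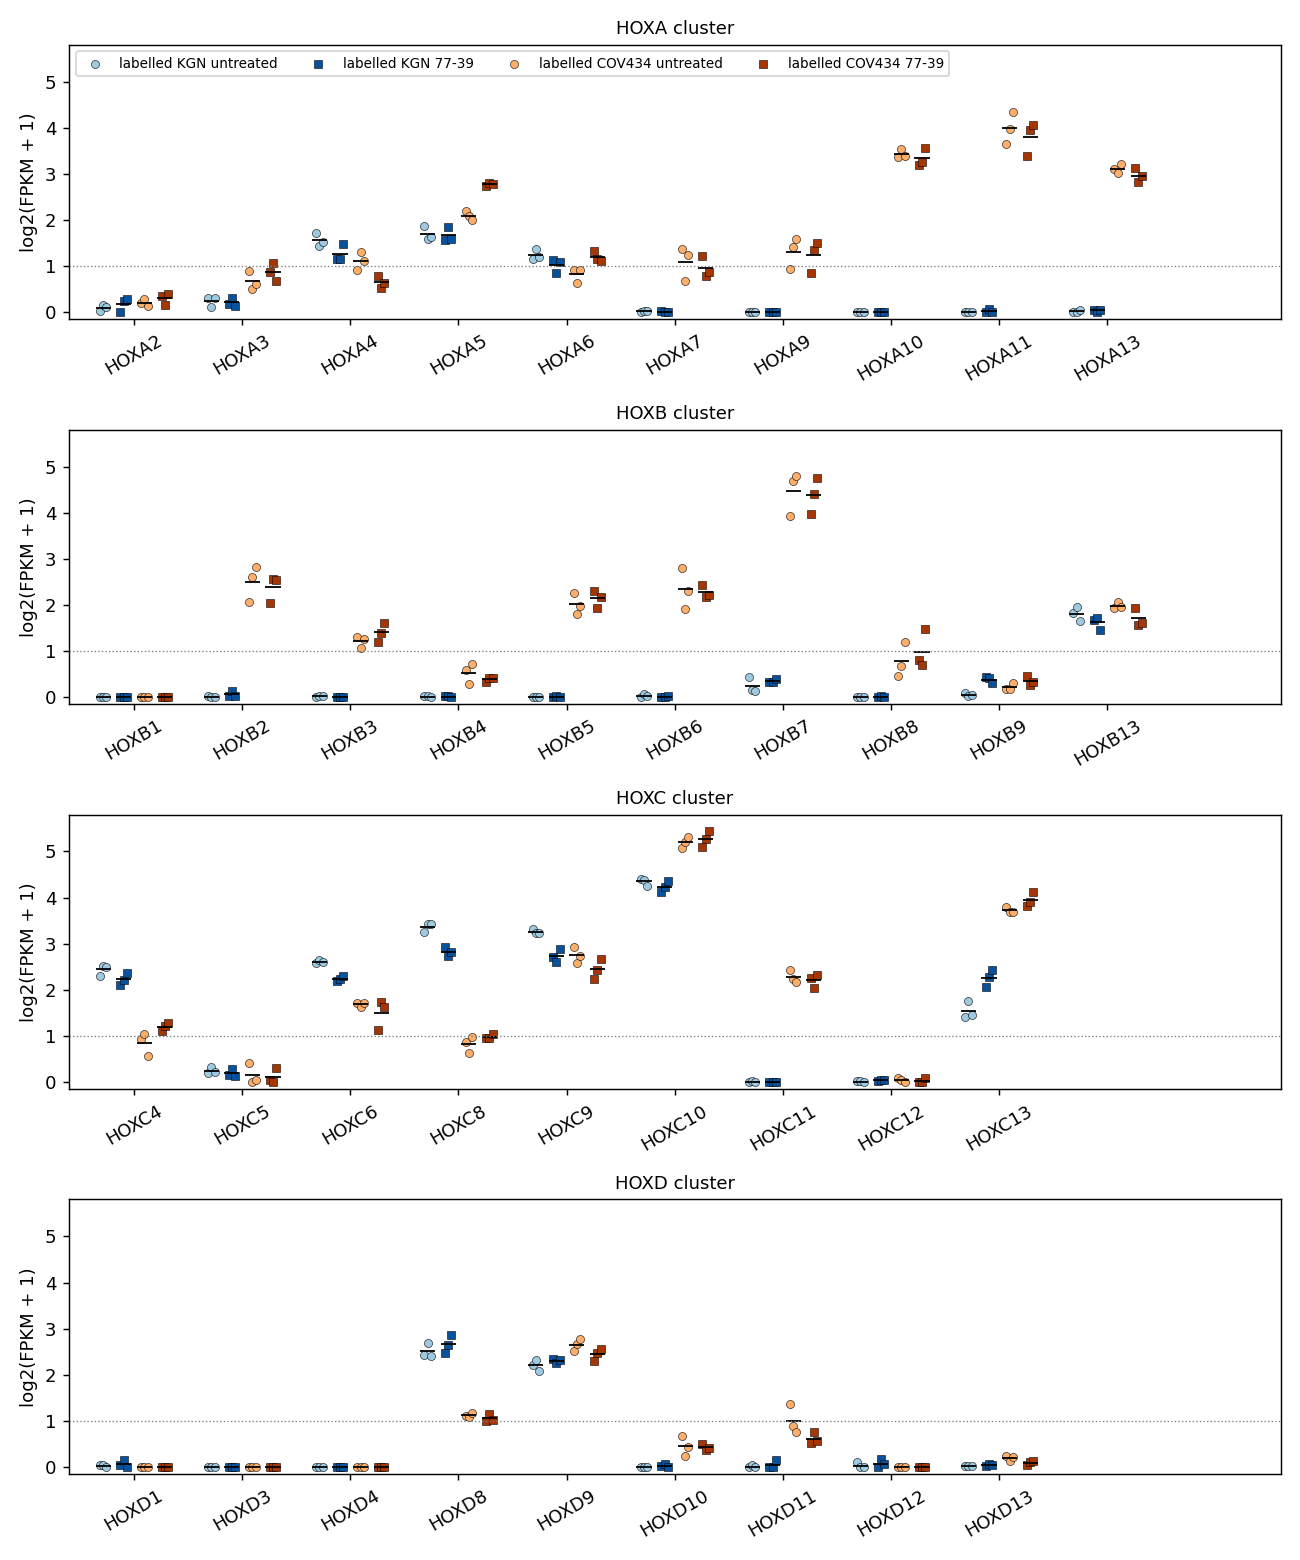
Log2(FPKM + 1) of the HOX genes reported, in each library, 1 panel per cluster and genes in order of number; points are libraries, short lines group means, and the dotted line marks 1 FPKM. HOXA7 to HOXA13, HOXB2 to HOXB8 and HOXC11 lie at or near 0 in the libraries labelled KGN and above it in those labelled COV434, while HOXC4, HOXC6 and HOXC8 lie higher in the libraries labelled KGN.

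Summed over members, HOX levels were 67.7 ± 2.93 FPKM in the untreated libraries labelled KGN and 151 ± 12.4 FPKM in those labelled COV434 (SD, n = 3 each). HOXC made up 72.5 ± 1.16% of the sum in the former and 41.1 ± 2.68% in the latter. HOXA took 10.9 ± 0.728% and 27.4 ± 0.710%, and HOXB 4.15 ± 0.469% and 26.1 ± 2.48%. HOXD took 12.5 ± 1.02% and 5.37 ± 0.485%. The shares of no cluster overlapped between the lines, in untreated or in treated libraries. After 77-39 the sums were 60.0 ± 4.04 and 150 ± 18.9 FPKM.

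**Figure D2:**
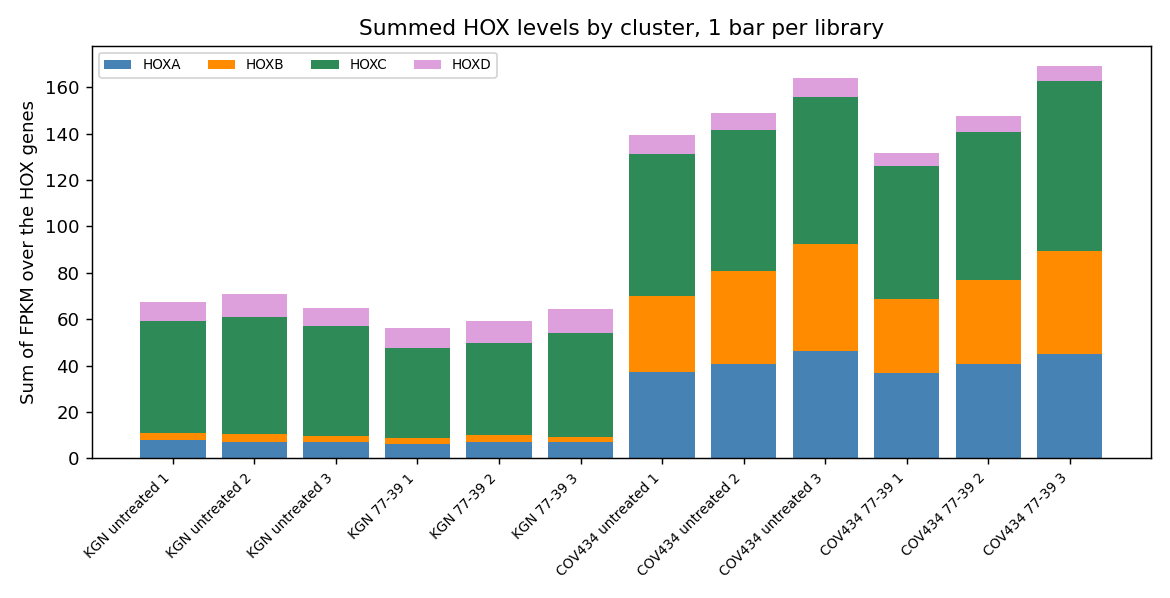
Summed FPKM of the HOX genes in each library (bars from 0), divided by cluster. HOXC is the largest part of every bar, and HOXA and HOXB are visible as large parts in the 6 libraries labelled COV434.

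The comparison of untreated lines asked how their HOX codes differ. Genes were called with limma on log2(FPKM + 1) at a Benjamini-Hochberg adjusted p under 0.05, over genes whose mean in the fitted libraries reached 1 FPKM. The percent called was 69.0 of the 13098 genes tested, 36.4 higher and 32.6 lower in the libraries labelled COV434. Of the 20 members tested, 19 were called, 12 higher and 7 lower. Of these 20, 11 were under 1 FPKM in one line and so passed the filter only through the line in which they were high. The count, and the p-values of those 11 given below, are a description and no support. The median log2 difference over the 20 members was 0.65, against 0.02 over all genes tested. By level, 14 members differed at least 10 times between the lines with a mean of at least 1 FPKM in one, 12 of them higher in the libraries labelled COV434.

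Posterior HOXA genes, at most a few reads in the libraries labelled KGN, were well transcribed in those labelled COV434. HOXA10 was at 9.28, 10.6 and 9.50 FPKM in their untreated libraries and had no read in any of the 6 libraries labelled KGN. Its level was at least 670-fold higher, taking 3 reads over the group as the floor. HOXA11 was at 11.5, 14.7 and 19.2 FPKM against no read in the untreated libraries labelled KGN, at least 645-fold higher. HOXA13, which patterns the most caudal structures, was at 7.64, 7.10 and 8.23 FPKM against 0.0106, 0.0115 and 0.0400 FPKM, 370-fold higher. That ratio rests on 6 reads in all under the label KGN and is uncertain. The groups lie far apart for each of these genes, and all were called, with log2 differences of 3.43 (SE 0.08, adjusted p = 1.43e-07) for HOXA10, 3.99 (SE 0.17, adjusted p = 1.86e-06) for HOXA11 and 3.08 (SE 0.08, adjusted p = 2.39e-07) for HOXA13. Each passed the filter only through the libraries labelled COV434, so these p-values are given as a description. HOXA9 was at 0.916, 1.67 and 2.03 FPKM against no read, at least 86.1-fold higher. HOXA7 was at 1.58, 0.610 and 1.36 FPKM against 2 reads in all, a ratio of 78.6 (exact 95% counting interval 21.4 to 655). Both had a mean under 1 FPKM over the 6 libraries and were not tested. HOXA7 shares 62.5% of its exon bases with antisense HOXA-AS3, and HOXA11 31.1% with antisense transcripts.

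Anterior and central HOXA genes differed less than the posterior ones and in both directions. HOXA4 was at 2.32, 1.71 and 1.89 FPKM against 0.898, 1.48 and 1.16 FPKM, lower in the libraries labelled COV434 (log2 difference -0.45, SE 0.13, adjusted p = 0.021). HOXA6 was also lower there (-0.42, SE 0.12, adjusted p = 0.0185). HOXA5 was higher, at 3.57, 3.24 and 3.01 FPKM against 2.69, 2.02 and 2.08 FPKM (0.39, SE 0.11, adjusted p = 0.0158). HOXA3 was at 0.238, 0.0816 and 0.248 FPKM against 0.869, 0.424 and 0.527 FPKM, 3.21-fold higher in the libraries labelled COV434, and HOXA2 had 10 reads against 19, both under the filter. These small differences were less certain: HOXA4 was not called without untreated replicate 1 or 3 labelled KGN or replicate 3 labelled COV434 (limma, adjusted p = 0.0698, 0.0531 and 0.0594), and HOXA5 not without replicate 2 or 3 labelled KGN (0.0650 and 0.0646). HOXA4 and HOXA6 were not called after quantile normalization (0.0792 and 0.0616).

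The HOXB cluster was nearly silent in the libraries labelled KGN except at its far end. HOXB7, the HOXB gene with the highest level, was at 14.3, 24.6 and 26.7 FPKM in the untreated libraries labelled COV434 and at 0.353, 0.115 and 0.0998 FPKM in those labelled KGN, which is 115-fold higher (log2 difference 4.22, SE 0.23, adjusted p = 6.52e-06). HOXB2 was at 3.20, 5.11 and 6.06 FPKM against 1 read in all, a ratio of 620 (exact 95% counting interval 111 to 24536). HOXB5 was at 3.81, 2.48 and 2.93 FPKM against no read, at least 115-fold higher. These 3 genes did not overlap between the lines in any library, but the share of all genes without overlap was not counted. HOXB6 was at 6.02, 2.76 and 3.97 FPKM against 3 reads in all, a ratio of 203 (exact 95% counting interval 69.2 to 989), and HOXB3 at 1.46, 1.11 and 1.40 FPKM against 0.00723, 0.0157 and 0.0273 FPKM, 79.3-fold higher. The HOXB3 ratio rests on 7 reads in all under the label KGN and is uncertain. HOXB2, HOXB5 and HOXB6 were called, with log2 differences of 2.49, 2.01 and 2.31 (adjusted p = 3.29e-05, 1.55e-05 and 9.74e-05), and HOXB3 was under the filter. HOXB2, HOXB5, HOXB6 and HOXB7 passed the filter only through the libraries labelled COV434, so their p-values are given as a description. HOXB4, HOXB8 and HOXB9 stayed at or under 1.05 FPKM in every group mean.

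HOXB13, the 5′ end of the cluster and a marker of prostate and hindgut epithelium, broke this pattern. It was at 2.55, 2.89 and 2.15 FPKM in the untreated libraries labelled KGN and at 2.82, 3.16 and 2.90 FPKM in those labelled COV434. The groups overlapped, and the difference of 0.17 (SE 0.10) was not past the threshold (limma, adjusted p = 0.179). It was the single member tested in this comparison that was not called.

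HOXC had the highest summed level in both lines, and its members ran in both directions. By members at or over 1 FPKM untreated it was first in the libraries labelled KGN, with 6 of 9, and behind HOXA (7 of 11) and HOXB (6 of 10) in those labelled COV434, with 5 of 9. HOXC10, the HOX gene with the highest mean in each of the 4 groups, was at 20.3, 19.96 and 18.0 FPKM in the untreated libraries labelled KGN and at 32.9, 36.1 and 38.5 FPKM in those labelled COV434 (log2 difference 0.85, SE 0.10, adjusted p = 0.000281). HOXC13, known for its part in hair and nail, was at 1.67, 2.39 and 1.74 FPKM against 12.9, 11.9 and 11.9 FPKM (2.18, SE 0.11, adjusted p = 4.60e-06). HOXC11 was at 4.44, 3.73 and 3.50 FPKM in the libraries labelled COV434 against 1 read in all, a ratio of 701 (exact 95% counting interval 125 to 27749). All of these 5′ members were higher in the libraries labelled COV434. HOXC12, which lies between HOXC11 and HOXC13, was at no more than 0.0724 FPKM in any library, so the 2 active genes of the libraries labelled COV434 flank a gene with almost no reads.

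The members toward the 3′ end were higher in the libraries labelled KGN. HOXC8, a thoracic-level gene, was at 8.48, 9.73 and 9.82 FPKM there and at 0.831, 0.561 and 0.981 FPKM in the libraries labelled COV434, 11.8-fold lower (log2 difference -2.53, SE 0.12, adjusted p = 2.43e-06). HOXC4 was at 3.96, 4.75 and 4.64 FPKM against 0.908, 1.06 and 0.483 FPKM (-1.60, SE 0.14, adjusted p = 7.28e-05). HOXC6 was at 4.95, 5.27 and 5.08 FPKM against 2.28, 2.09 and 2.28 FPKM (-0.92, SE 0.07, adjusted p = 4.05e-05). Levels of these 3 genes did not overlap between the lines. The share of all genes without overlap was not counted, and nothing particular to them is read from it. HOXC9 showed the smallest of these differences, with 8.99, 8.37 and 8.41 FPKM against 6.61, 5.01 and 5.70 FPKM (-0.51, SE 0.11, adjusted p = 0.00471). HOXC4 and HOXC6 share 17.8% and 15.7% of their exon bases with HOX genes of the same strand, so some of their reads cannot be assigned, and HOXC5, at 0.0949 to 0.193 FPKM in group means, shares 59.9% with other genes.

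In HOXD only HOXD8 and HOXD9 reached 1 FPKM in the libraries labelled KGN, and HOXD8, HOXD9 and HOXD11 in the untreated ones labelled COV434. HOXD8 was at 4.39, 5.50 and 4.31 FPKM in the untreated libraries labelled KGN and at 1.17, 1.14 and 1.27 FPKM in those labelled COV434 (log2 difference -1.38, SE 0.10, adjusted p = 2.93e-05). HOXD9 ran the other way, at 3.66, 4.04 and 3.23 FPKM against 4.74, 5.35 and 5.82 FPKM (0.44, SE 0.10, adjusted p = 0.0085). HOXD8 and HOXD9 are neighbours, and their order reversed between the lines: HOXD8 was above HOXD9 in each untreated library labelled KGN and below it in each labelled COV434. HOXD11 was at 1.57, 0.864 and 0.708 FPKM in the libraries labelled COV434 against 1 read in all, a ratio of 122 (exact 95% counting interval 21.5 to 4863). HOXD10 was at 0.605, 0.175 and 0.355 FPKM against no read. HOXD1, HOXD12 and HOXD13 were at or under 0.151 FPKM in every group mean.

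**Figure D3:**
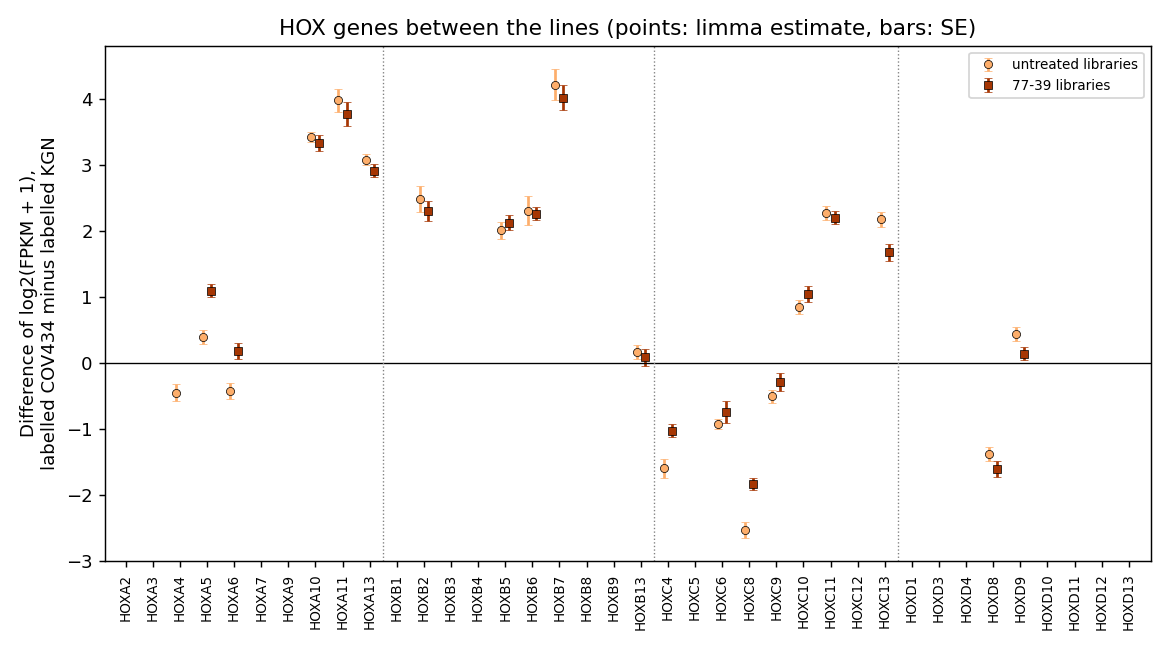
Difference of log2(FPKM + 1) between the lines for the HOX genes reported that passed the filter, libraries labelled COV434 minus those labelled KGN, untreated and after 77-39; points are limma estimates and bars SE, and genes without a point were not tested. HOXA10, HOXA11, HOXA13, HOXB7 and HOXC11 lie above 2 in both states, and HOXC4, HOXC6, HOXC8 and HOXD8 below 0 in both.

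In the treated libraries the percent called between the lines was 71.3 of 13138 genes, 36.8 higher and 34.5 lower in the libraries labelled COV434. Of 20 members tested, 16 were called, 11 higher and 5 lower, and 10 of the 20 were under 1 FPKM in one line. HOXA6, HOXB13, HOXC9 and HOXD9 were not past the threshold. HOXA10 again had no read in the libraries labelled KGN, against 8.18, 8.53 and 10.9 FPKM, and HOXA11 had 2 reads against 9.47, 14.5 and 15.8 FPKM. HOXC8 differed 6.21-fold in the treated state, with 6.62, 5.65 and 6.08 FPKM against 0.955, 0.935 and 1.07 FPKM.

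Of 54 noncoding genes inside the clusters, 7 were tested between the untreated lines and 7 called, beside 69.0 percent of all genes, 4 higher and 3 lower in the libraries labelled COV434, with a median log2 difference of 1.00; these too had to pass the filter on level. HOXA11-AS, antisense to HOXA11, was at 5.81, 6.32 and 5.58 FPKM in the libraries labelled COV434 and at 0.0172, 0.0561 and 0.0325 FPKM in those labelled KGN. HOXB-AS3 was at 5.55, 0.800 and 2.16 FPKM against no read. HOTAIR, which lies between HOXC11 and HOXC12 and is known for recruiting Polycomb complexes, was at 2.25, 1.81 and 1.40 FPKM against 1 read in all. HOTTIP overlaps HOXA13 on the opposite strand, runs beyond it and is known for recruiting MLL complexes to posterior HOXA genes. It was at 3.14, 1.84 and 2.14 FPKM against 1 read in all (log2 difference 1.73, SE 0.15, adjusted p = 6.49e-05). The 3 called lower there lie in HOXC. They were HOXC-AS1, with means of 10.6 FPKM under the label KGN and 3.30 FPKM under the label COV434, HOXC-AS2 (4.11 and 1.07 FPKM) and AC012531.1 (2.15 and 0.925 FPKM). HAGLR, in HOXD, also ran this way, at 0.665, 0.458 and 0.626 FPKM in the libraries labelled KGN and with no read in those labelled COV434. It was under the filter and not tested. HOTAIRM1, in HOXA, was at 3.17, 4.30 and 3.36 FPKM against 6.74, 9.79 and 8.27 FPKM (log2 difference 1.00, SE 0.15, adjusted p = 0.00107). HOXA-AS2 and HOXD-AS2 stayed under 1 FPKM in every library.

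The counts for cofactors and regulators that follow stand beside 69.0 percent of all genes called between the untreated lines, and nothing particular to these lists is read from them. PBX3 was at 6.19 ± 0.40 FPKM in the untreated libraries labelled KGN and at 1.58 ± 0.17 FPKM in those labelled COV434 (log2 difference -1.48, adjusted p = 9.16e-06; SD, n = 3 each). MEIS1 and MEIS2 were at 0.179 and 0.0629 FPKM in the former and at 0.584 and 1.22 FPKM in the latter. Of 9 TALE cofactors, 5 were tested, with 1 called higher and 2 lower. Of 18 genes of retinoic acid supply and signaling, the inducer of 3′ HOX genes in the embryo, 10 were tested, with 7 called higher in the libraries labelled COV434 and 2 lower and a median log2 difference of 1.12. CYP26B1, which degrades retinoic acid, was at 0.277 ± 0.018 and 5.67 ± 0.75 FPKM, CRABP2, which carries it, at 0.274 ± 0.13 and 3.18 ± 0.80 FPKM, and the receptor RARB at 0.312 and 0.0801 FPKM. The 2 called lower were RDH10, at 123 ± 8.87 and 6.27 ± 0.385 FPKM, and ALDH1A1, at 51.9 ± 2.23 and 0.00688 ± 0.0119 FPKM. The list thus ran in both directions. Both Polycomb complexes were present in each line: all 12 listed genes of complex 2 and all 19 of complex 1 were tested, with 5 higher and 4 lower and with 3 higher and 7 lower. EZH2, the methyltransferase of complex 2, was at 19.7 ± 0.83 and 17.5 ± 3.3 FPKM (adjusted p = 0.322), CBX2, a reader subunit of complex 1, at 9.19 ± 0.45 and 10.6 ± 2.7 FPKM (adjusted p = 0.426), and the activating methyltransferase KMT2A at 4.79 ± 0.59 and 3.34 ± 0.97 FPKM (adjusted p = 0.0585). Of 20 genes of the MLL and H3K27 demethylase list, 3 were higher and 5 lower, and of 7 other regulators 2 were tested and 1 was lower.

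After 77-39 the same 13 members as before stood at or over 1 FPKM in the libraries labelled KGN. The percent called was 34.0 of 12671 genes, 17.6 higher and 16.4 lower after treatment. Of 13 members tested, 4 were called, 1 higher and 3 lower, a share near that of all genes. At an unadjusted p under 0.05 there were 6 of 13, against 45.3 percent of all genes. The median log2 change was -0.19 over these members and 0.01 over all genes tested. All 4 lie in HOXC: HOXC13 rose, and HOXC6, HOXC8 and HOXC9 fell. HOXC also held 6 of the 13 members at or over 1 FPKM, and nothing particular to the cluster is read from the count.

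HOXC8 (ENSG00000037965, chr12:54009106-54012362) fell from 8.48, 9.73 and 9.82 FPKM in the untreated libraries labelled KGN to 6.62, 5.65 and 6.08 FPKM after 77-39 (log2 change -0.54, SE 0.07, adjusted p = 0.00259). HOXC9 (ENSG00000180806, chr12:53994895-54003337) fell from 8.99, 8.37 and 8.41 FPKM to 5.51, 5.10 and 6.38 FPKM (-0.53, SE 0.08, adjusted p = 0.00296). HOXC6 (ENSG00000197757, chr12:53990624-54030823) fell from 4.95, 5.27 and 5.08 FPKM to 3.60, 3.70 and 3.94 FPKM (-0.36, SE 0.05, adjusted p = 0.00296). Every treated library lay under every untreated one for these genes, and the means were 1.53-fold, 1.52-fold and 1.36-fold lower. The share of all genes without overlap was not counted. HOXC13 (ENSG00000123364, chr12:53938765-53946544) rose from 1.67, 2.39 and 1.74 FPKM to 3.21, 3.89 and 4.39 FPKM, 1.98-fold, again without overlap (0.72, SE 0.13, adjusted p = 0.00609). HOXC6 was not called when all 12 libraries shared 1 estimate of the spread (limma, adjusted p = 0.119), and HOXC8, HOXC9 and HOXC13 were called under every alternative.

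**Figure D4:**
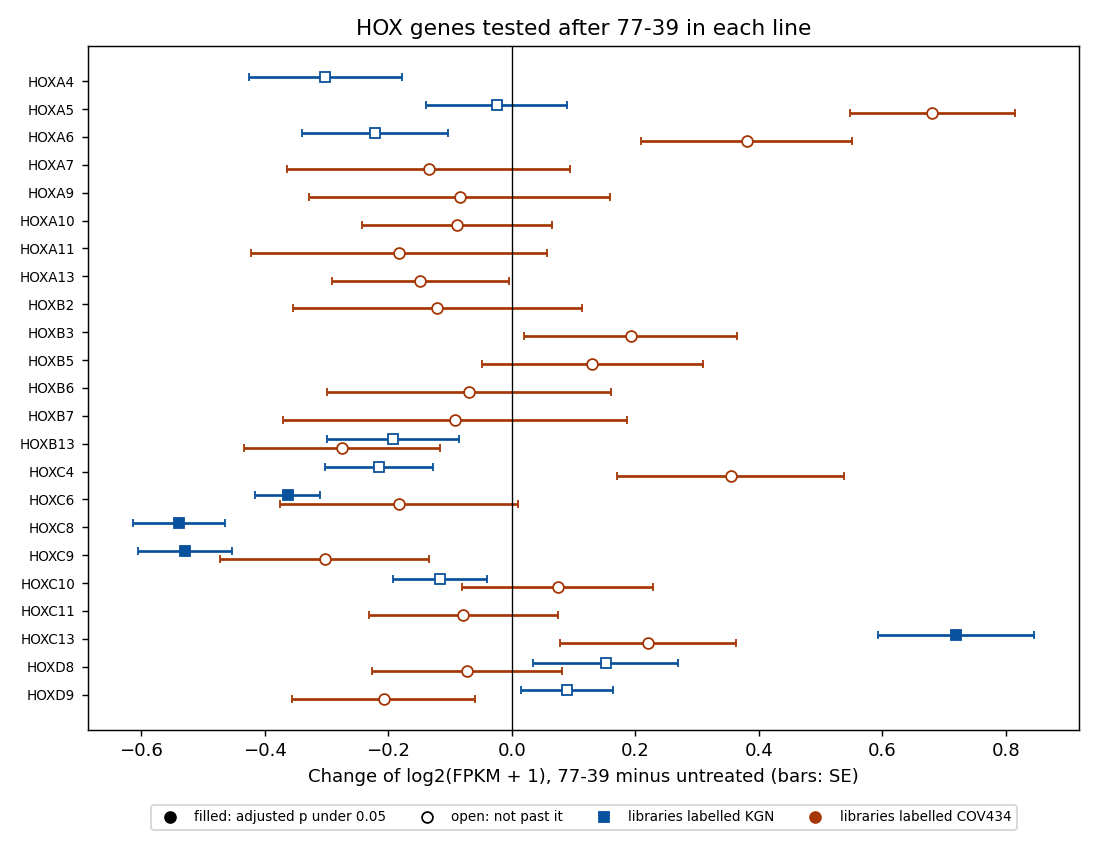
Change of log2(FPKM + 1) with 77-39 for the HOX genes reported that were tested in the libraries labelled KGN (squares) or COV434 (circles); points are limma estimates, bars SE, and filled symbols have an adjusted p under 0.05. HOXC6, HOXC8, HOXC9 and HOXC13 in the libraries labelled KGN are filled, and no circle is.

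The other members tested in these libraries did not pass. HOXC10, between HOXC9 and HOXC11, was at 16.3, 17.7 and 19.5 FPKM after treatment and overlapped the untreated range (log2 change -0.12, SE 0.08, adjusted p = 0.276). HOXC4 had a change of -0.22 (SE 0.09, adjusted p = 0.102) and HOXA4 one of -0.30 (SE 0.12, adjusted p = 0.103). HOXA5 was at 1.97, 2.63 and 2.03 FPKM (-0.02, SE 0.11, adjusted p = 0.887). The remaining changes, of HOXA6, HOXB13, HOXD8 and HOXD9, ran from -0.22 in HOXA6 to 0.15 in HOXD8. HOXA6 also did not overlap between treated and untreated libraries, though it was not called. Below the filter, HOXB9 went from 3, 1 and 2 reads to 17, 15 and 10 reads per library, or from 0.0416 ± 0.0201 to 0.308 ± 0.0682 FPKM (SD, n = 3). HOXA9 and HOXA10 had no read after treatment either, and HOXA7, HOXA11, HOXB5, HOXB6, HOXB8 and HOXC11 had at most 2 reads in the treated group.

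Of 4 noncoding cluster genes tested in the libraries labelled KGN, 2 fell, beside 16.4 percent of all genes lower. HOXC-AS1 was at 12.2, 10.9 and 8.67 FPKM untreated and at 5.49, 3.45 and 5.46 FPKM after 77-39 (log2 change -1.01, SE 0.17, adjusted p = 0.00578). HOXC-AS2 was at 3.80, 4.86 and 3.67 FPKM and then at 2.39, 2.30 and 2.70 FPKM (-0.55, SE 0.10, adjusted p = 0.00678). Both lie on the strand opposite to the HOXC genes, and HOXC9 shares 9.71% of its exon bases with other genes, so a part of these reads cannot be told apart. HOTAIRM1 had a change of 0.12 (SE 0.11, adjusted p = 0.417). Of 16 coding genes flanking the clusters, 12 were tested and 3 rose, beside 17.6 percent of all genes higher. They were SNX10 (0.74, SE 0.06, adjusted p = 0.000347) and SKAP2 (0.41, SE 0.06, adjusted p = 0.00393), both beside HOXA, and CALCOCO2 (0.27, SE 0.05, adjusted p = 0.00956), beside HOXB. No gene flanking HOXC was called, and nothing particular to the noncoding or flanking genes is read from these counts.

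The counts for regulators of HOX genes after 77-39 in the libraries labelled KGN stand beside 34.0 percent of all genes called, 17.6 higher and 16.4 lower, and nothing particular to these lists is read from them. Of the 19 genes of Polycomb complex 1, 3 rose and 4 fell, with a median log2 change of -0.01. BMI1 rose from 6.94 ± 0.44 to 11.3 ± 0.73 FPKM (0.63, adjusted p = 0.000946), and the chromatin reader CBX8 fell from 9.52 ± 0.41 to 5.83 ± 0.20 FPKM (-0.62, adjusted p = 0.000419). CBX2 fell by 0.36 on the log2 scale (adjusted p = 0.00298). Of the 12 genes of complex 2, 1 rose and 5 fell, with a median of -0.09. RBBP7, its histone-binding subunit, fell by 0.38 (adjusted p = 0.0017), PHF19 by 0.42 (adjusted p = 0.00209) and EZH2 by 0.22 (adjusted p = 0.021). Of the 20 genes of the MLL and demethylase list, 2 rose and 7 fell, with a median of -0.11. DOT1L, the H3K79 methyltransferase, fell by 0.49 (adjusted p = 0.00311) and ASH2L, a core subunit of MLL complexes, by 0.27 (adjusted p = 0.00606), while KMT2A was not past the threshold (-0.15, adjusted p = 0.238). Of 7 retinoic acid genes tested, 3 fell, among them DHRS3, a retinaldehyde reductase (-0.50, adjusted p = 0.0023), and RXRB (-0.37, adjusted p = 0.0107). Among 5 TALE cofactors tested, PBX2 fell (-0.30, adjusted p = 0.00772), and of 2 other regulators tested GDF11, which sets the trunk to tail boundary of HOX use, fell (-0.41, adjusted p = 0.00439). Of the granulosa markers WT1 fell from 59.7 ± 2.9 to 46.9 ± 0.98 FPKM, and of the fibroblast markers LUM rose and COL3A1 fell, while no tested epithelial or neural marker was called. Their part in the HOXC changes was not tested.

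In the libraries labelled COV434 no HOX gene was called after 77-39. Only 5 of 12060 genes were called by limma, a percent called of 0.0415, and 965 had an unadjusted p under 0.05, or 8.00 percent. By its own method the paper reports more changed genes in COV434 than in KGN, the reverse of the order by label here. The reason was not tested. Of the 21 members tested, 0 were called by limma or by voom on the recovered reads and 1, HOXA5, had an unadjusted p under 0.05. The median log2 change was -0.08 over these members and -0.02 over all genes tested. The median SD between replicates over genes tested was 0.205 and 0.212 on the log2 scale in the 2 groups labelled COV434, against 0.0807 and 0.0780 in those labelled KGN.

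HOXA5 (ENSG00000106004, chr7:27141052-27143668) had 3.57, 3.24 and 3.01 FPKM untreated and 5.67, 5.99 and 5.86 FPKM after 77-39 in the libraries labelled COV434. The groups did not overlap and the treated mean was 1.79 times the untreated one, with a log2 change of 0.68 (SE 0.13) that was not past the threshold over all genes (limma, unadjusted p = 0.000879, adjusted p = 0.136). With all 12 libraries in 1 fit it was called (adjusted p = 0.00584). Its neighbour HOXA6 went from 0.892, 0.549 and 0.884 to 1.51, 1.23 and 1.17 FPKM (0.38, SE 0.17, adjusted p = 0.641). HOXA4, on the other side, went from 0.898, 1.48 and 1.16 to 0.726, 0.453 and 0.544 FPKM and was under the filter. Neighbouring genes thus had values on opposite sides.

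Of the regulators, flanking genes, noncoding cluster genes and markers listed, 0 were called by limma in the libraries labelled COV434.

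Several genes with large differences between the lines had overlapping levels with and without 77-39. HOXA10 was at 9.79 ± 0.709 FPKM untreated and 9.20 ± 1.48 FPKM treated, HOXA11 at 15.2 ± 3.88 and 13.3 ± 3.34 FPKM, and HOXA13 at 7.66 ± 0.562 and 6.83 ± 0.800 FPKM (SD, n = 3 each). HOXB7 was at 21.8 ± 6.65 and 20.3 ± 5.69 FPKM, and HOXC10 at 35.8 ± 2.80 and 37.9 ± 4.54 FPKM. Groups did not overlap for HOXC4, at 0.816 ± 0.298 and 1.30 ± 0.143 FPKM (log2 change 0.35, SE 0.18, adjusted p = 0.728), for HOXD11, at 1.05 ± 0.461 and 0.538 ± 0.135 FPKM and not tested, or for HOXC13, at 12.2 ± 0.568 and 14.5 ± 1.62 FPKM. The change of HOXC13 of 0.22 (SE 0.14) had an adjusted p of 0.795. These are not all the members without overlap, and nothing particular to them is read from it. HOXB7 and HOXA11 were lowest in replicate 1 of both groups, and replicate numbers pair these libraries, least clearly for replicate 3, but the fit with the replicate block also called 0 of 21 members.

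**Figure D5:**
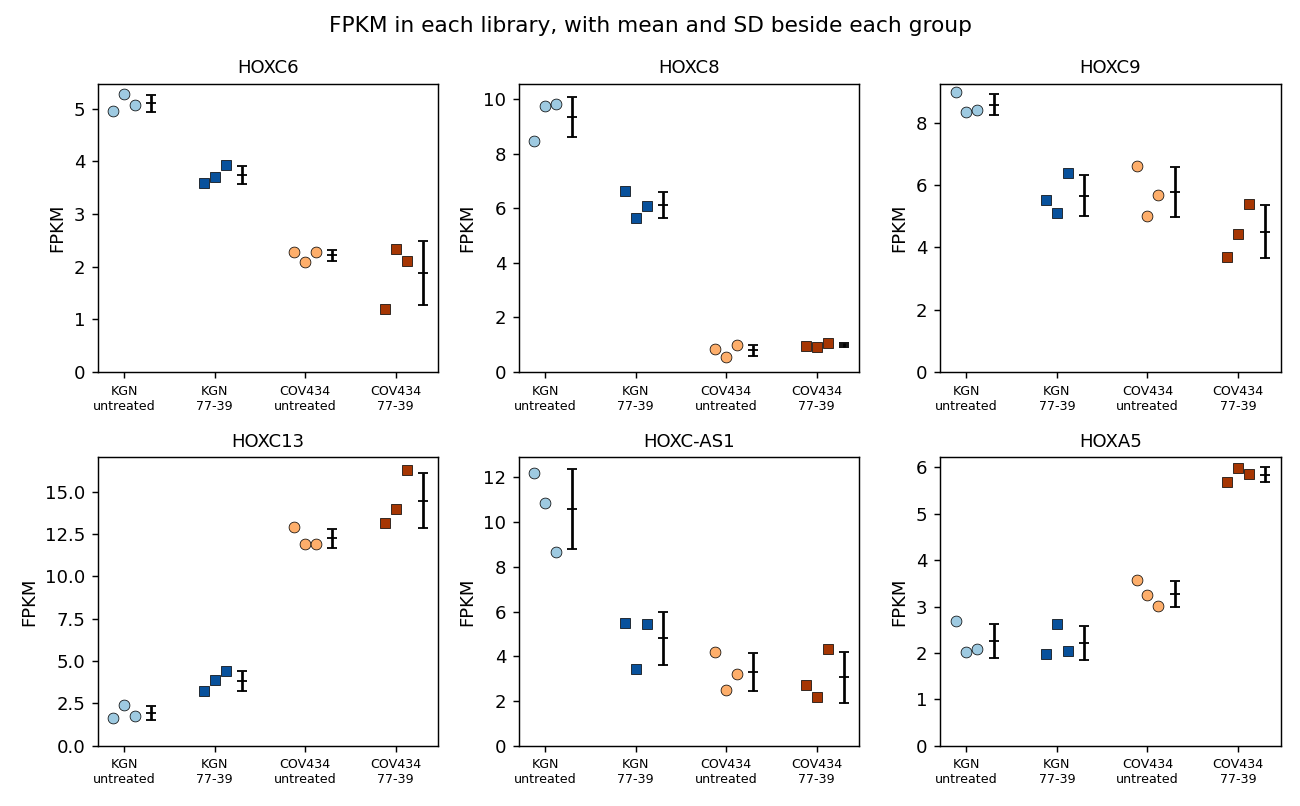
FPKM in each library of the genes called after 77-39 or in the interaction and of HOXC-AS1 (points; every axis from 0), with mean and SD beside each group. HOXC6, HOXC8, HOXC9 and HOXC-AS1 step down and HOXC13 steps up in the libraries labelled KGN, and HOXA5 stands higher in the treated libraries labelled COV434.

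Whether the lines responded differently was tested as the interaction of line and treatment. The percent called was 3.60 of 13127 genes. Of 20 members tested, 2 were called, both with a more negative change in the libraries labelled KGN. For HOXA5 the change was lower by 0.71 on the log2 scale (limma, -0.71, SE 0.15, adjusted p = 0.0286), with a change of -0.02 under the label KGN and one of 0.68 under the label COV434. For HOXC8 the difference was -0.69 (SE 0.15, adjusted p = 0.0267), with a fall in the libraries labelled KGN against levels of 0.791 ± 0.213 and 0.985 ± 0.0704 FPKM in those labelled COV434, untreated and treated. HOXC6, HOXC9 and HOXC13, which were called in the libraries labelled KGN, had differences of -0.18, -0.23 and 0.50 with adjusted p of 0.688, 0.571 and 0.156, so that a different response was not shown for them. HOXA6 and HOXC4 had differences of -0.60 and -0.57 (adjusted p = 0.0807 and 0.118). Among regulators, RARG had a change of -0.26 and 0.33 (interaction -0.59, adjusted p = 0.0195), DHRS3 one of -0.50 and 0.12 (-0.63, adjusted p = 0.0426), RARA an interaction of 0.49 (adjusted p = 0.0253), and RING1, the catalytic core of Polycomb complex 1, one of -0.61 (adjusted p = 0.0288).

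Both calls in the interaction depended on the processing and on single libraries. With the replicate block HOXA5 was not called (limma, adjusted p = 0.0501). That block is shared by both lines, though replicate numbers did not pair the libraries between the lines or under the label KGN. Neither gene was called with a pseudocount of 0.1 (0.0585 for HOXA5 and 0.0790 for HOXC8), with no filter (0.0592 and 0.0554) or with voom (0.115 and 0.164). The HOXA5 difference ranged from -0.87 to -0.62 over the alternatives and kept an adjusted p under 0.05 in 8 of 20. It was not called without any of the 3 untreated libraries labelled KGN (adjusted p = 0.0684, 0.0636 and 0.0676 without replicate 1, 2 and 3), without treated replicate 1 or 3 of that label (0.0921 and 0.0791), or without untreated replicate 2 or 3 (0.0514 and 0.0748) or treated replicate 2 (0.0671) labelled COV434. The HOXC8 difference ranged from -0.96 to -0.60 and kept its call in 11 of 20. It was not called without untreated replicate 2 or 3 (adjusted p = 0.0862 and 0.0858) or treated replicate 1, 2 or 3 (0.0636, 0.0908 and 0.0702) labelled KGN, or without treated replicate 2 labelled COV434 (0.0563). Every one of these fits kept the sign.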

How the data were processed

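RNA of 12 libraries (KGN and COV434, untreated and 77-39, 3 each) was sequenced on an Illumina platform. The authors counted fragments per gene and deposited FPKM values; the submitters' processing notes name HISAT2 2.0.5 and mouse builds, but the coordinates of all 58735 genes are those of GENCODE 29 on GRCh38. FPKM times gene length gave whole reads for 100% of values (tolerance 0.05), with 15547851 to 18280415 reads per library, so that 3 reads on a 1 kb gene correspond to 0.152 to 0.200 FPKM. The divisor of the FPKM values was above the reads on genes in each library labelled KGN (1.85402e+07 against 16803402 in untreated replicate 1). It was below them in each labelled COV434 (1.65724e+07 against 17701495 in untreated replicate 1). Small FPKM differences between the lines depend on this divisor, which the fits on recovered reads did not use. Intervals and floors cover counting error only. The share of all genes whose groups did not overlap was not counted, so statements on overlap describe single genes and are not used as a test.

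Groups followed the labels. Each comparison was fitted with limma 3.58.1 in R 4.3.3 (lmFit, eBayes with trend, two-sided) on log2(FPKM + 1), for genes whose mean in the fitted libraries reached 1 FPKM, with Benjamini-Hochberg adjustment over all genes tested and a threshold of 0.05. Fold changes of low genes are understated on this scale. The pipeline was tested on simulated data. Results were also computed on the recovered reads with voom, after quantile or median-ratio scaling, with 0.1 as pseudocount, with the filter lowered to 0.1 FPKM or dropped, in 1 fit of all 12 libraries, with a replicate block, over protein-coding genes alone, and leaving out each library. Members, lists and tests were chosen with earlier results of these data known. Named in full were the 3 highest members of each cluster, those called after 77-39 or in the interaction, and those differing at least 10 times between untreated lines, with a fixed set of regulators and up to 2 genes per list with the smallest p; other genes were named after their values were seen. Replicate numbers paired the libraries labelled COV434 (correlations of deviations between same-numbered libraries 0.400, 0.474 and 0.166, from the data and not the labels) and not those labelled KGN (-0.016, -0.018 and -0.019). Under the label COV434 the pairing was weak for replicate 3, since untreated replicate 3 with treated replicate 2 reached 0.154. Promoter sequences are from RefSeq on GRCh38.p14. Values of a few genes are not reported here or drawn by gene, and counts, medians and sums include them.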

Additional observations from a re-analysis of the deposited data

Results flagged for a closer look

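The change with 77-39 differed between the lines for 2 HOX genes in a test of the difference itself (limma interaction, adjusted p = 0.0286 and 0.0267). These calls stand beside 3.60 percent of all genes called. For HOXA5 the change in the libraries labelled KGN minus that in those labelled COV434 was -0.71 on the log2 scale. HOXA5 was not called within the libraries of either label. For HOXC8 the difference was -0.69, with a call in the libraries labelled KGN and levels under the filter in those labelled COV434. Each call was lost when single libraries were left out, with voom, with no filter and with a pseudocount of 0.1.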

How the results depend on the processing

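Over the alternatives run for single HOX genes, 930 values kept direction and side of the threshold, 32 lost a call, 9 gained one and 4 changed sign, none of these from a called difference. The sign changes came with 1 library left out, for the treated line difference of HOXB13 (-0.029 to 0.15) and the change of HOXA5 in the libraries labelled KGN (-0.12 to 0.066). Alternatives were not tabulated for the other members in the libraries labelled COV434 or in the interaction. HOX genes called between untreated lines numbered 19, with 28 at a filter of 0.1 FPKM, 29 with no filter, 17 with quantile normalization, and 17 to 19 with 1 library left out. Between treated lines they numbered 16, with 25 at a filter of 0.1 FPKM and 25 with no filter, since more members were then tested (32 and 36 against 20), and 16 to 18 with 1 library left out. In the libraries labelled KGN 4 were called, and 3 to 6 under the alternatives, HOXB9 being added at the lower filter (log2 change 0.33, adjusted p = 0.0316). In those labelled COV434 the number was 0, and 1 with all 12 libraries in 1 fit. In the interaction 2 were called, 0 with a pseudocount of 0.1, with no filter and with voom, 3 with protein-coding genes only, and 0 to 2 with 1 library left out; the cause was not tested. With the replicate block the numbers were 17, 16, 4, 0 and 1 in the same order of comparisons, the interaction call of HOXA5 being lost (adjusted p = 0.0501). Replicate numbers did not pair the libraries between the lines or under the label KGN. Quantile normalization moved the median of all genes between untreated lines from 0.02 to -0.09. No tested HOX gene changed direction there, and the calls of HOXA4 and HOXA6 were lost.

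Over all genes, 5 calls in the libraries labelled COV434 became 488 with all 12 libraries in 1 fit, 87 with the block, 37 with protein-coding genes only and 27 with voom; in those labelled KGN 4307 became 1237 in the 12-library fit and 2949 without a filter. Members under the floor of 3 reads per group may be transcribed below detection at this depth.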
